A study of Mus musculus with 4 samples.

Results

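The genes described here encode integrins, cadherins and other surface molecules by which T cells attach to other cells and to matrix. They were taken by gene symbol from the 4 deposited count tables: integrin alpha and beta subunits, intercellular adhesion molecules, cadherins, protocadherins and calsyntenins, carcinoembryonic antigen related molecules, nectin-like molecules, junctional adhesion molecules and a set of single genes such as Selplg, Cd44, Cd47, Cd96, Nrp1, Tln1 and Fermt3. The match used gene symbols alone, but the genes were chosen with earlier results of these data known. Of 11027 listed genes, 51 matched. They comprised 12 integrin alpha subunits, 7 integrin beta subunits, 2 integrin adaptors, 10 members of the immunoglobulin superfamily, 5 nectin-like molecules or receptors, 10 members of the cadherin superfamily and 5 other surface receptors. All 51 were among the 10960 genes tested, which had a CPM (a count scaled to library depth) of at least 1 in at least 1 library.

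RNA-seq was performed on CD4+ T cells of wild type C57BL/6 mice aged 7-8 weeks, taken from spleen and lymph nodes. Naive cells were activated and infected in neutral conditions with a retrovirus that carried Tox2 and GFP, or with one that carried GFP only, and the GFP-positive cells were sorted before culture. The 4 groups were Tfh-like with Tox2, Tfh-like with GFP, Th0 with Tox2 and Th0 with GFP, with 1 library each. Both media held blocking antibodies against IL-2, IL-4 and IFN-gamma, and the Tfh-like medium held IL-6 besides. Tox2 is a DNA-binding protein of the TOX family, and the study asked how it acts in the formation of T follicular helper (Tfh) cells, which help B cells in lymphoid follicles. Expression from the virus is forced and not under the control of the gene itself. How many mice gave the cells is not given in the sources used here.

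Integrins are pairs of an alpha and a beta subunit that hold low affinity until signals from the T-cell receptor or chemokine receptors recruit talin and kindlin to the beta tail. Itgal with Itgb2 forms LFA-1, which binds Icam1 and Icam2 on partner cells, Itga4 with Itgb1 or Itgb7 binds vascular and gut addressins, and Itga3, Itga6 and Itga7 with Itgb1 bind laminins. Selectin ligands such as PSGL-1 start rolling on vessel walls, nectin-like ligands are read by the receptors Cd96, Cd226 and Crtam, and CEACAM and PECAM molecules bind their own kind and carry inhibitory motifs.

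Total counts ran from 13015283 to 13673774, so that 3 counts, the limit that a count of 0 allows, stood for 0.219 to 0.231 CPM. Tox2 itself had 32246 counts in Tfh-like Tox2 and 35297 in Th0 Tox2, against 851 in Tfh-like GFP and 144 in Th0 GFP, so that both libraries labelled Tox2 were the high ones, although counts do not separate viral from endogenous transcripts. Of 8 markers of CD4+ T cells 7 were listed, with summed levels of 4579 to 4982 CPM. Of 37 markers of other cell types 10 were listed, with summed levels of 27.8 to 43.7 CPM. In bulk RNA, fewer cells that express a gene and less RNA per cell cannot be told apart.

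Ceacam1 (chr7:25461707-25477603, minus strand, GRCm38) and Ceacam2 (chr7:25516042-25539857, minus strand) are neighbouring copies of one family whose values moved together. Their promoter windows, the 250 bases before the RefSeq start on GRCm38.p6, are shown for that reason; in capitals are the bases that differ or have no partner in the other window. Ceacam1 is at chr7:25477626-25477875 and Ceacam2 at chr7:25540005-25540254, both on the minus strand.
Ceacam1: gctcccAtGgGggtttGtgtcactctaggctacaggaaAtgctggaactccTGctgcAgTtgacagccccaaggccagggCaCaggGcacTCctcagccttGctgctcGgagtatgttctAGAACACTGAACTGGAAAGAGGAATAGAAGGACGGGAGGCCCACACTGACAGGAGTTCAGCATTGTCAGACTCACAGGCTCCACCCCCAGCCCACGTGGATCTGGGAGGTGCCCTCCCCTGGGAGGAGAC
Ceacam2: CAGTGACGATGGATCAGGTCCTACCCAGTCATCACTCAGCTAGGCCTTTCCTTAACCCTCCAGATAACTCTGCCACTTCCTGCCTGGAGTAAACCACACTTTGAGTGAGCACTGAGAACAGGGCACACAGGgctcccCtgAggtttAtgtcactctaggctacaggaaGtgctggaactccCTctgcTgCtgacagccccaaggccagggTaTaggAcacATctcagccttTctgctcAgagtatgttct
Over the 119 bases that aligned, 104 were identical (87.4%) and 15 differed, and the aligned stretch lies at the start of the Ceacam1 window and at the end of the Ceacam2 window; the other 131 bases of each were unaligned. The transcripts, from which shared reads would come, were not compared.

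The windows of Itga4 (chr2:79255176-79255425, plus strand), Icam1 (chr9:21015690-21015939, plus strand) and Cd96 (chr16:46120249-46120498, minus strand) are shown as examples. These genes differed with Tox2 or with the IL-6 culture and hold letters bound by T-cell factors. The same holds for Ceacam2, Fermt3 and Itga3, whose matches are not marked here. Whether these letters play a part in the differences was not tested. Capitals mark matches to TTCNNNGAA, the core bound by STAT proteins, or to TGTGGT, the core bound by RUNX proteins, on either strand.
Itga4: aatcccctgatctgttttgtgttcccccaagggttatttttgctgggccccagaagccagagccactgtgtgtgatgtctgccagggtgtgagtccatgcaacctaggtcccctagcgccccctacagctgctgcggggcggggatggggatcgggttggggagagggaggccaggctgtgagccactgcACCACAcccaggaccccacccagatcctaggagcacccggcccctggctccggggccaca
Icam1: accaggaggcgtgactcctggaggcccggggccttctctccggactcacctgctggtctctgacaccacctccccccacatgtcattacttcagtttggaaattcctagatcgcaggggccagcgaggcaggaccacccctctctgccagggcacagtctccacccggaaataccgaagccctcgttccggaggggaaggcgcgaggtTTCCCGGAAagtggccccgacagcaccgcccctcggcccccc
Cd96: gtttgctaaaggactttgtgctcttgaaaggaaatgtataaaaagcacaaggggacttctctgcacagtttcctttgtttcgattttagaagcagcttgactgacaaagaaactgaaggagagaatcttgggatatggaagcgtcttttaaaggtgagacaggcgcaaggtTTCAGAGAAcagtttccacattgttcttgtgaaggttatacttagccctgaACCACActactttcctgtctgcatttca
A window was found for 31 of the 51 genes, some with more than one start. The STAT letters were in 3 of 35 such windows (8.57%), those of Cd96, Icam1 and Itga10, and in 7.02% of all 32851 windows of this length. The RUNX letters were in 5 of 35 (14.3%), those of Cd96, Ceacam2, Fermt3, Itga3 and Itga4, and in 14% of all windows. The match of each motif in the Cd96 window stands apart from the other, and both shares lay near those of all windows.

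Levels per transcript length, given as the FPKM the authors computed, ran up to 191.8 FPKM, that of Fermt3 in Tfh-like GFP. The LFA-1 chains Itgal and Itgb2, the beta subunit Itgb7, the kindlin Fermt3 and Selplg, which encodes the selectin ligand PSGL-1, were the most abundant, each at 75.5 FPKM or more in every library. Itgal had 129.9 FPKM in Tfh-like Tox2, 123.1 in Tfh-like GFP, 139.2 in Th0 Tox2 and 123.0 in Th0 GFP. At the low end stood the CD103 chain Itgae, which pairs with Itgb7 to bind E-cadherin, with 0.434, 0.563, 0.165 and 0.334 FPKM in the same order, and the myeloid chain Itgam, with 0.228, 0.0733, 0.185 and 0.222 FPKM. Both of these levels rested on few reads, at most 42 counts for Itgae and 19 for Itgam.

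**Figure D1:**
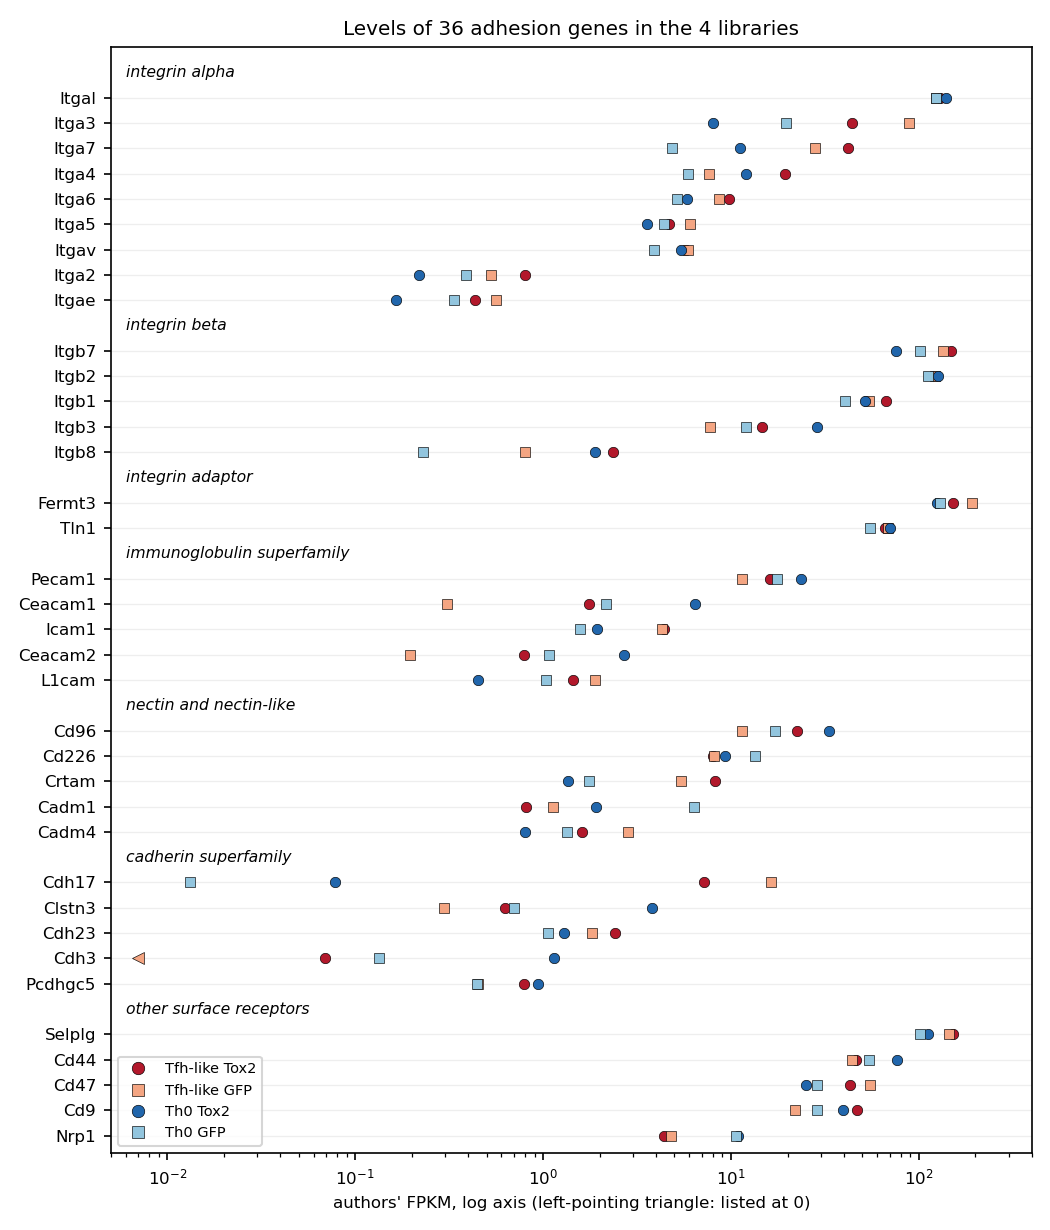
Level of the 36 genes named individually, in FPKM as computed by the authors on a log axis, by role; each point is 1 library and a left-pointing triangle stands for a gene listed at 0. The 4 points of Itgal lie between 123.0 and 139.2 FPKM, while those of Cdh17 lie at 7.19 and 16.2 FPKM in the Tfh-like libraries and at 0.0778 and 0.0131 FPKM in the Th0 libraries.

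The first comparison asked which adhesion genes differed with forced Tox2 over both cultures. Among them 10 genes rose and 1 fell (edgeR's quasi-likelihood test, Benjamini-Hochberg adjusted p at most 0.05 over all genes tested), that is 19.6% and 1.96% of the 51. Of all genes tested 4.07% rose and 2.74% fell. Those that rose were Itga4, Itga7, Itgb3, Itgb8, Ceacam1, Ceacam2, Cd96, Cd9, Cdh3 and Clstn3, with log2 fold changes of 0.76 to 3.14, and the one that fell was Itga3. The median log2 fold change of the 51 was 0.14, with 30 above 0, and that of all genes tested was 0.00. The only spread in this test is how far the Tox2 effect differed from one culture to the other, moderated across genes, so no p-value here measures spread between replicates or animals. Tox2 folds were higher in longer genes in these libraries (Spearman's rho across genes 0.30 in Th0 and 0.13 in Tfh-like), and 36 of the 51 were longer than the median gene. With that length trend removed, 10 of the 51 rose and 2 fell, Itga3 and Cadm1. Of all genes tested 431 then rose and 307 fell, against 446 and 300 without the removal.

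Integrin alpha subunits gave 2 of 12 genes that rose and 1 that fell (median log2 fold change 0.13). Itga4, the chain of VLA-4 and of the gut-homing integrin (chr2:79255426-79333123, plus strand), had 4482 counts in Tfh-like Tox2 and 2908 in Th0 Tox2, against 1737 in Tfh-like GFP and 1401 in Th0 GFP. Both Tox2 libraries were above both GFP libraries. The rise was 2.52-fold in Tfh-like (log2 1.33, counting interval 1.25 to 1.41) and 2.01-fold in Th0 (1.0, 0.91 to 1.10), with a log2 fold change of 1.17 over both cultures (SE 0.12, edgeR adjusted p = 0.00573). Itga7, a laminin-binding chain known best from muscle (chr10:128933818-128958282, plus strand), had 5608 counts in Tfh-like Tox2 and 1553 in Th0 Tox2, against 3679 in Tfh-like GFP and 664 in Th0 GFP. Within each culture the Tox2 library was higher, by 1.49-fold in Tfh-like and 2.26-fold in Th0, and the fold change over both was 0.86 on the log2 scale (SE 0.16, edgeR adjusted p = 0.0295). Itga3, another laminin-binding chain (chr11:95044474-95076801, minus strand), had 4174 counts in Tfh-like Tox2 and 793 in Th0 Tox2, against 8255 in Tfh-like GFP and 1907 in Th0 GFP. It fell by 1.16 on the log2 scale (SE 0.11, edgeR adjusted p = 0.00558), with inverse folds of 2.03 in Tfh-like and 2.48 in Th0. The 2 laminin-binding chains Itga3 and Itga7 thus differed with Tox2 in opposite directions in both cultures.

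The remaining alpha chains did not pass. Itgal had 14170 counts in Tfh-like Tox2 and 15763 in Th0 Tox2, against 13168 in Tfh-like GFP and 13735 in Th0 GFP, a log2 fold change of 0.11 (SE 0.09, edgeR adjusted p = 0.494). Itgav, the chain shared by integrins that bind RGD-containing ligands, had 1028 and 999 counts in Tfh-like Tox2 and Th0 Tox2, against 1037 and 713 in Tfh-like GFP and Th0 GFP (log2 0.19, SE 0.14). The laminin chain Itga6 had a log2 fold change of 0.16 (SE 0.10) and the fibronectin chain Itga5 one of -0.35 (SE 0.12, edgeR adjusted p = 0.124). Itgae had 33 and 13 counts in Tfh-like Tox2 and Th0 Tox2, against 42 and 26 in Tfh-like GFP and Th0 GFP, and a log2 fold change of -0.65 (SE 0.35, edgeR adjusted p = 0.285).

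Among the 7 beta subunits 2 rose and none fell. Itgb8, which pairs with Itgav and is known for activating latent TGF-beta (chr12:119158022-119238802, minus strand), had 435 counts in Tfh-like Tox2 and 359 in Th0 Tox2, against 144 in Tfh-like GFP and 43 in Th0 GFP. Its 2 Tox2 libraries lay close together and above both GFP libraries. The fold was 2.92 in Tfh-like (log2 1.55, counting interval 1.28 to 1.84) and 7.76 in Th0 (2.96, 2.56 to 3.51), and 2.18 on the log2 scale over both (SE 0.32, edgeR adjusted p = 0.0178). Itgb3, the other main partner of Itgav and the platelet integrin chain (chr11:104608000-104670476, plus strand), had 1436 counts in Tfh-like Tox2 and 2934 in Th0 Tox2, against 742 in Tfh-like GFP and 1200 in Th0 GFP. It rose by 1.08 on the log2 scale (SE 0.12, edgeR adjusted p = 0.00797). Of 5 platelet and megakaryocyte markers 1 was listed, Gp1ba, at 0.691 to 1.84 CPM, and its part in the Itgb3 result was not tested. The common partners Itgb1 (log2 0.31, SE 0.10, edgeR adjusted p = 0.106), Itgb2 (0.06, SE 0.10) and Itgb7 (-0.15, SE 0.15) did not pass, nor did the adaptors talin-1, encoded by Tln1 (0.14, SE 0.12), and kindlin-3, encoded by Fermt3 (-0.21, SE 0.11).

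In the immunoglobulin superfamily 2 of 10 genes rose. Ceacam1, an inhibitory receptor that binds itself, had 169 counts in Tfh-like Tox2 and 646 in Th0 Tox2, against 29 in Tfh-like GFP and 214 in Th0 GFP. The Tox2 library was higher within each culture, by 5.39-fold in Tfh-like (log2 2.43, counting interval 1.93 to 3.13) and 2.90-fold in Th0 (1.54, 1.32 to 1.78), and the fold change over both was 1.88 on the log2 scale (SE 0.24, edgeR adjusted p = 0.0109). Ceacam2 had 50 and 176 counts in Tfh-like Tox2 and Th0 Tox2, against 12 and 69 in Tfh-like GFP and Th0 GFP, and rose by 1.54 on the log2 scale (SE 0.28, edgeR adjusted p = 0.0311; 0.063 with DESeq2). The ratio of Ceacam1 to Ceacam2 counts was 3.38 in Tfh-like Tox2, 3.67 in Th0 Tox2, 2.42 in Tfh-like GFP and 3.10 in Th0 GFP, and how the counting split reads between the copies is not given, so the values of both are uncertain. Pecam1, encoding CD31, had 1677 and 2533 counts in Tfh-like Tox2 and Th0 Tox2, against 1164 and 1867 in Tfh-like GFP and Th0 GFP, and lay just outside the threshold (log2 0.44, SE 0.10, edgeR adjusted p = 0.0532). It passed with limma's voom (0.0416), with the authors' library scaling (0.0496) and with scaling by the sum of counts (0.0313). L1cam, a neural adhesion molecule, had 176 and 57 counts in Tfh-like Tox2 and Th0 Tox2, against 225 and 129 in Tfh-like GFP and Th0 GFP (log2 -0.76, SE 0.25, edgeR adjusted p = 0.114).

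Of the nectin-like molecules and their receptors 1 of 5 rose. Cd96, a receptor of T and NK cells for the poliovirus receptor Pvr (chr16:46035657-46120251, minus strand), had 817 counts in Tfh-like Tox2 and 1249 in Th0 Tox2, against 405 in Tfh-like GFP and 634 in Th0 GFP. The folds were alike, 1.96 in Tfh-like and 1.90 in Th0, and the fold change over both was 0.95 on the log2 scale (SE 0.10, edgeR adjusted p = 0.00667). Cd226, which competes for the same ligand and activates, had 314 and 376 counts in Tfh-like Tox2 and Th0 Tox2, against 312 and 537 in Tfh-like GFP and Th0 GFP (log2 -0.30, SE 0.16, edgeR adjusted p = 0.27). Cadm1, the ligand of Crtam (chr9:47530173-47857637, plus strand), had 140 counts in Tfh-like Tox2 and 345 in Th0 Tox2, against 193 in Tfh-like GFP and 1123 in Th0 GFP. Its log2 fold change of -1.23 (SE 0.27) missed the threshold with an edgeR adjusted p that rounds to it (0.05), and it passed with DESeq2 (0.00551) and with limma's voom (0.0243). Crtam and Cadm4 did not pass (log2 0.19, SE 0.23, and -0.79, SE 0.26).

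In the cadherin superfamily 2 of 10 genes rose, both at low levels. Clstn3, encoding the synaptic molecule calsyntenin-3 (chr6:124430759-124464794, minus strand), had 52 counts in Tfh-like Tox2 and 327 in Th0 Tox2, against 24 in Tfh-like GFP and 59 in Th0 GFP. It rose by 1.91 on the log2 scale (SE 0.35, edgeR adjusted p = 0.0298), and the Th0 Tox2 library stood above the other 3. Cdh3, encoding P-cadherin (chr8:106510891-106557297, plus strand), had 5 and 86 counts in Tfh-like Tox2 and Th0 Tox2, against 0 and 10 in Tfh-like GFP and Th0 GFP. It was 7.10-fold higher with Tox2 in Th0, while in Tfh-like the 5 counts against 0 were not distinguishable from no difference (exact lower limit of the ratio 0.894). It passed the test over both cultures (edgeR adjusted p = 0.0232; 0.063 with DESeq2). Cdh17, encoding the liver-intestine cadherin (chr4:11758147-11817895, plus strand), had 534 counts in Tfh-like Tox2 against 1183 in Tfh-like GFP, and 6 in Th0 Tox2 against 1 in Th0 GFP. It did not pass (edgeR adjusted p = 0.0743), although it did with limma's voom (0.0465) and with scaling by the sum of counts (0.033), and its ratio in Th0, 5.81 with a counting interval of 0.704 to 267, was not distinguishable from no difference. The protocadherin gamma genes share their last exons, so their counts are uncertain; Pcdhgc5, with 100 and 123 counts in Tfh-like Tox2 and Th0 Tox2, against 56 and 58 in Tfh-like GFP and Th0 GFP, did not pass (log2 0.92, SE 0.23, edgeR adjusted p = 0.0655).

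Of the 5 other surface receptors 1 rose. Cd9, a tetraspanin that associates with integrins (chr6:125460266-125494791, minus strand), had 1588 counts in Tfh-like Tox2 and 1383 in Th0 Tox2, against 726 in Tfh-like GFP and 996 in Th0 GFP. Both Tox2 libraries were above both GFP libraries, by 2.13-fold in Tfh-like and 1.34-fold in Th0 (log2 fold change 0.76 over both, SE 0.17, edgeR adjusted p = 0.0486). This call was lost when only genes with at least 5 CPM were tested (0.0571). The hyaluronan receptor Cd44 (log2 0.26, SE 0.12), the SIRP-alpha ligand Cd47 (-0.29, SE 0.10), Selplg (0.10, SE 0.10) and the semaphorin co-receptor Nrp1 (-0.06, SE 0.11) did not pass.

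**Figure D2:**
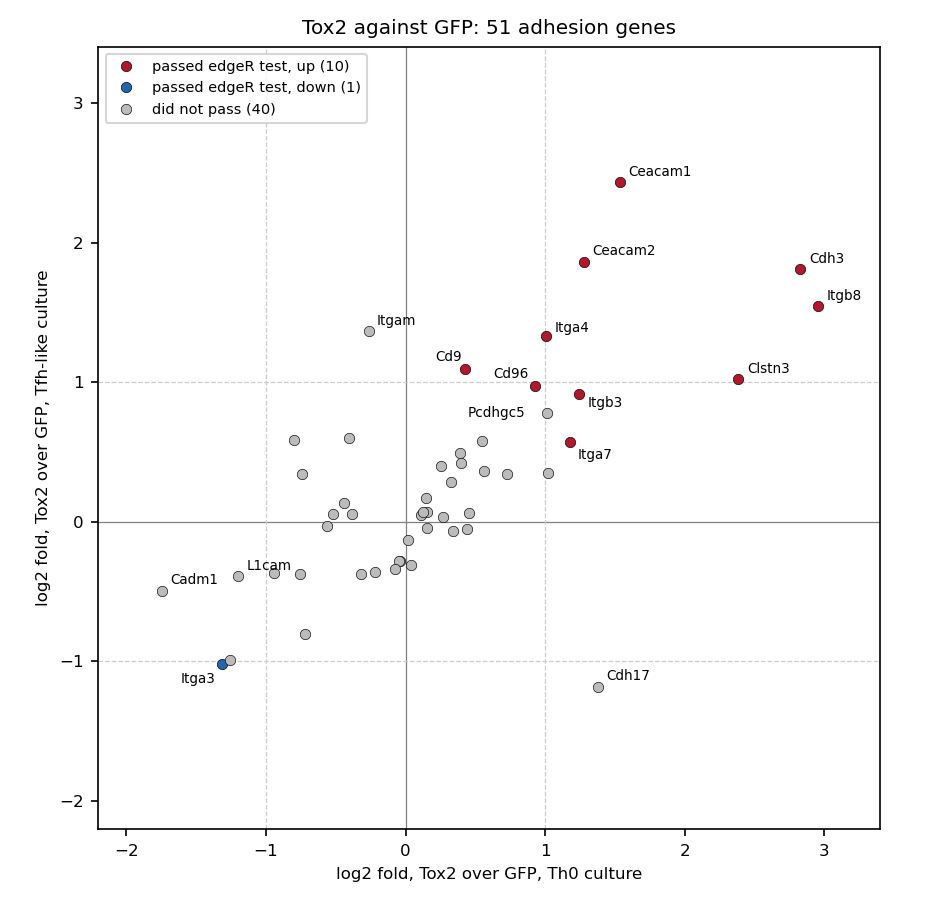
Log2 fold of Tox2 over GFP in Th0 (horizontal) and in Tfh-like (vertical) for the 51 genes, 1 point per gene; red points rose, the blue point fell and grey points did not pass the edgeR test, and dashed lines mark 2-fold. Itgb8 lies at 2.96 in Th0 and 1.55 in Tfh-like and Itga3 at -1.31 and -1.02, while Cdh17 lies at 1.38 in Th0 and -1.18 in Tfh-like; the Cdh3 and Cdh17 positions rest on counts of 0 and 1 and depend on the prior count of 2.

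Set pair by pair, with no test, a gene was counted as 2-fold apart where its counting interval excluded 0 and its log2 fold was 1 or more in size. In Th0, 9 of the 51 (17.6%) were 2-fold higher with Tox2 and 3 (5.88%) lower, and of all genes 3.18% were higher and 1.56% lower. In Tfh-like, 7 (13.7%) were 2-fold higher and 2 (3.92%) lower, and of all genes 2.86% were higher and 1.9% lower. Each pair compares 1 library with 1 library.

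The Tox2 folds differed at least 2-fold between the cultures, beyond counting error, for 7 genes. Of the 51, 5 (9.8%) had the higher fold in Tfh-like and 2 (3.92%) in Th0, and of all genes 1.56% and 1.92% did. Itgb8 and Clstn3 had the larger Tox2 fold in Th0, with log2 differences of -1.41 (counting interval -1.94 to -0.88) and -1.36 (-2.16 to -0.56). Cadm1 was lower with Tox2 by 3.35-fold in Th0 and by 1.41-fold in Tfh-like, a difference of 1.25 (0.89 to 1.61). Crtam had 703 counts in Tfh-like Tox2 against 451 in Tfh-like GFP, and 120 in Th0 Tox2 against 154 in Th0 GFP, a difference of 1.0 (0.62 to 1.39). Icam2, an LFA-1 ligand, had 295 counts in Tfh-like Tox2 against 226 in Tfh-like GFP, and 244 in Th0 Tox2 against 396 in Th0 GFP, a difference of 1.09 (0.75 to 1.43). The collagen-binding chain Itga2, with 95 against 61 counts in Tfh-like and 27 against 47 in Th0, and Itgam, with 19 against 6 and 16 against 19, had differences of 1.39 (0.57 to 2.21) and 1.63 (0.04 to 3.22). This layout leaves no test of these differences.

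The second comparison set the Tfh-like culture, with IL-6, against Th0 over both viruses. It uses the same 4 libraries as the Tox2 comparison. Here 17 of the 51 genes rose and 10 fell (33.3% and 19.6%, edgeR adjusted p at most 0.05), and of all genes tested 14.3% rose and 9.96% fell. Those that rose were Itga3, Itga4, Itga5, Itga6, Itga7, Itgb1, Itgb7, Fermt3, Icam1, L1cam, Jam2, Crtam, Cadm4, Cdh17, Cdh23, Selplg and Cd47. Those that fell were Itgb3, Ceacam1, Ceacam2, Pecam1, Cd96, Cadm1, Cdh3, Clstn3, Cd44 and Nrp1. The median log2 fold change of the 51 was 0.16 and that of all genes tested -0.01. When libraries were scaled by the sum of listed counts alone, 1500 of all genes rose and 1649 fell, against 1564 and 1092 with TMM scaling.

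Of the 12 alpha subunits 5 rose and none fell (median log2 fold change 0.62). Itga3, whose counts are given above, was higher in Tfh-like by 5.45-fold with Tox2 (log2 2.45, counting interval 2.34 to 2.56) and 4.45-fold with GFP (2.15, 2.08 to 2.23), a log2 fold change of 2.30 over both viruses (SE 0.12, edgeR adjusted p = 0.000157). Itga7 was higher by 3.74-fold with Tox2 and 5.69-fold with GFP (log2 fold change 2.20, SE 0.16, edgeR adjusted p = 0.000416). For both laminin-binding chains each Tfh-like library was above each Th0 library. Itga6 had 1457 counts in Tfh-like Tox2 and 1265 in Tfh-like GFP, against 911 in Th0 Tox2 and 795 in Th0 GFP, and rose by 0.72 on the log2 scale (SE 0.10, edgeR adjusted p = 0.00407). Itga4 rose by 0.52 (SE 0.12, edgeR adjusted p = 0.0222), but its Th0 Tox2 library, with 2908 counts, was above its Tfh-like GFP library, with 1737. Itga5, which with Itgb1 forms the main fibronectin receptor, had 384 and 485 counts in Tfh-like Tox2 and Tfh-like GFP, against 304 and 368 in Th0 Tox2 and Th0 GFP; it passed with an edgeR adjusted p of 0.0473 and not with DESeq2 (0.362). Itgal (log2 -0.06, SE 0.09) and Itgav (0.34, SE 0.14) did not pass.

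Of the 7 beta subunits 2 rose and 1 fell. Itgb7, the partner of Itga4 in gut homing, had 6803 counts in Tfh-like Tox2 and 6031 in Tfh-like GFP, against 3606 in Th0 Tox2 and 4746 in Th0 GFP, and rose by 0.68 on the log2 scale (SE 0.15, edgeR adjusted p = 0.0208). Itgb1, the partner of all the laminin-binding chains named, had 4511 and 3603 counts in Tfh-like Tox2 and Tfh-like GFP, against 3620 and 2792 in Th0 Tox2 and Th0 GFP, and rose by 0.39 (SE 0.10, edgeR adjusted p = 0.0305; 0.0718 with DESeq2). Itgb3 fell by 0.82 (SE 0.12, edgeR adjusted p = 0.00486). Itgb8 did not pass (log2 0.88, SE 0.32, edgeR adjusted p = 0.0906): it was 3.34-fold higher in Tfh-like with GFP and 1.26-fold with Tox2. Fermt3 had 6552 and 8081 counts in Tfh-like Tox2 and Tfh-like GFP, against 5601 and 5706 in Th0 Tox2 and Th0 GFP, and rose by 0.41 (SE 0.11, edgeR adjusted p = 0.0373; 0.052 with DESeq2). Itgb2, with 6045 and 6067 counts in Tfh-like Tox2 and Tfh-like GFP, against 6670 and 5803 in Th0 Tox2 and Th0 GFP, had a log2 fold change of 0.01 (SE 0.10), and Tln1 one of 0.11 (SE 0.12).

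The shares of Itgal and of Itga3 with Itga7 in the summed FPKM of the alpha chains differed between the cultures, while those of Itga4 overlapped. The 12 alpha chains summed to 257.4 FPKM in Tfh-like Tox2 and 270.0 in Tfh-like GFP, against 186.6 in Th0 Tox2 and 168.3 in Th0 GFP. Itgal made up 50.5% and 45.6% of that sum in Tfh-like Tox2 and Tfh-like GFP, against 74.6% and 73.1% in Th0 Tox2 and Th0 GFP, while its own level stayed between 123.0 and 139.2 FPKM. Itga3 and Itga7 together made up 33.3% and 43.2% in Tfh-like Tox2 and Tfh-like GFP, against 10.3% and 14.5% in Th0 Tox2 and Th0 GFP. Itga4 made up 7.5% in Tfh-like Tox2 against 2.83% in Tfh-like GFP, and 6.47% in Th0 Tox2 against 3.50% in Th0 GFP. The beta chains summed to 352.3 and 320.4 FPKM in Tfh-like Tox2 and Tfh-like GFP, against 285.8 and 267.3 FPKM in Th0 Tox2 and Th0 GFP, most of it Itgb7, Itgb2 and Itgb1. Itgb7 had 147.9 and 133.7 FPKM in Tfh-like Tox2 and Tfh-like GFP, against 75.5 and 100.8 FPKM in Th0 Tox2 and Th0 GFP.

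**Figure D3:**
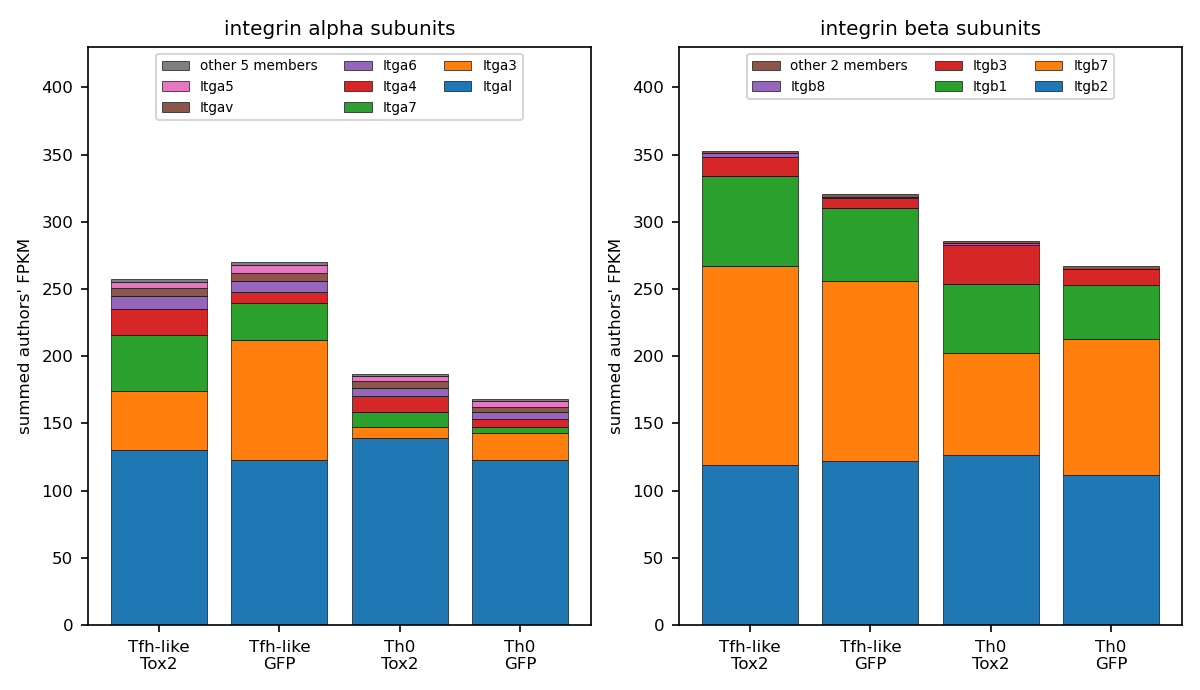
Summed FPKM, as computed by the authors, of the integrin alpha (left) and beta (right) subunits in each of the 4 libraries, split by gene. The Itgal segment is alike in height in the 4 libraries (123.0 to 139.2 FPKM), and the Itga3 segment is 44.0 and 88.8 FPKM in Tfh-like Tox2 and Tfh-like GFP, against 8.05 and 19.6 FPKM in Th0 Tox2 and Th0 GFP.

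In the immunoglobulin superfamily Icam1, L1cam and Jam2 rose in Tfh-like and Ceacam1, Ceacam2 and Pecam1 fell. Icam1, the main LFA-1 ligand, had 320 counts in Tfh-like Tox2 and 305 in Tfh-like GFP, against 145 in Th0 Tox2 and 116 in Th0 GFP, without overlap. It rose by 1.31 on the log2 scale (SE 0.16, edgeR adjusted p = 0.00262). Ceacam1 was lower in Tfh-like by 3.65-fold with Tox2 and 6.78-fold with GFP, and fell by 2.22 on the log2 scale (SE 0.24, edgeR adjusted p = 0.00153). Ceacam2 fell by 2.02 (SE 0.29, edgeR adjusted p = 0.00433) and Pecam1 by 0.59 (SE 0.10, edgeR adjusted p = 0.00858). L1cam rose by 1.23 (SE 0.25, edgeR adjusted p = 0.0151), and Jam2, a junctional molecule of endothelium, by 1.58 (SE 0.45, edgeR adjusted p = 0.0463; 0.409 with DESeq2) on 15 and 31 counts in Tfh-like Tox2 and Tfh-like GFP, against 4 and 12 in Th0 Tox2 and Th0 GFP. Of 6 endothelial and stromal markers 2 were listed. They summed to 18.7 and 18.3 CPM in Tfh-like Tox2 and Tfh-like GFP, against 10.3 and 12.1 in Th0 Tox2 and Th0 GFP. The collagen gene Col1a1 rose (log2 1.32, edgeR adjusted p = 0.00557), and the other, Pdgfrb, did not pass (0.06, edgeR adjusted p = 0.892). The part of such cells in the Jam2 and L1cam results was not tested.

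Among nectin-like molecules the receptor Crtam rose and its ligand Cadm1 fell. Crtam (chr9:40969691-41004628, minus strand) was 5.99-fold higher in Tfh-like with Tox2 and 2.99-fold with GFP, a log2 fold change of 2.09 (SE 0.24, edgeR adjusted p = 0.00191). Cadm1 was 2.35-fold lower with Tox2 and 5.61-fold lower with GFP, and fell by 1.92 on the log2 scale (SE 0.28, edgeR adjusted p = 0.00451). Its Th0 GFP library, with 1123 counts, stood well above the other 3. Cadm4 had 58 and 100 counts in Tfh-like Tox2 and Tfh-like GFP, against 30 and 49 in Th0 Tox2 and Th0 GFP, and passed with edgeR (log2 1.04, SE 0.26, adjusted p = 0.0311) and not with DESeq2 (0.266). Cd96 fell by 0.58 (SE 0.10, edgeR adjusted p = 0.00904), and Cd226 did not pass (log2 -0.48, SE 0.16, edgeR adjusted p = 0.0737).

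The largest culture differences were in cadherins, in both directions. Cdh17 was higher in Tfh-like by 8.67 on the log2 scale with GFP (counting interval 7.77 to 15.6) and 6.11 with Tox2 (5.40 to 7.98). These folds rest on 1183 counts against 1 with GFP and 534 against 6 with Tox2, and depend on the prior count of 2. By the ratio of TMM-scaled counts, without the prior count, the GFP fold was 1218 (218 to 48147). Cdh17 passed with an edgeR adjusted p of 0.000157. In Th0 its transcripts were thus at 6 counts or fewer. Cdh23, a large cadherin known from hair cells of the inner ear, had 678 counts in Tfh-like Tox2 and 502 in Tfh-like GFP, against 377 in Th0 Tox2 and 306 in Th0 GFP, and rose by 0.83 on the log2 scale (SE 0.11, edgeR adjusted p = 0.0039). Cdh3 was 12.1-fold lower in Tfh-like with Tox2 and, by the exact counting limit on 0 counts against 10, at least 2.18-fold lower with GFP; it fell with an edgeR adjusted p of 0.00335. Clstn3 fell by 2.07 (SE 0.35, edgeR adjusted p = 0.00778), by 5.87-fold with Tox2 and 2.28-fold with GFP.

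Of the other receptors Selplg and Cd47 rose and Cd44 and Nrp1 fell. Selplg had 10809 counts in Tfh-like Tox2 and 10019 in Tfh-like GFP, against 8265 in Th0 Tox2 and 7350 in Th0 GFP, and rose by 0.46 on the log2 scale (SE 0.10, edgeR adjusted p = 0.0157). Cd47 had 4488 and 5626 counts in Tfh-like Tox2 and Tfh-like GFP, against 2715 and 3063 in Th0 Tox2 and Th0 GFP, and rose by 0.85 (SE 0.10, edgeR adjusted p = 0.00218). Nrp1 had 713 and 763 counts in Tfh-like Tox2 and Tfh-like GFP, against 1849 and 1770 in Th0 Tox2 and Th0 GFP, and fell by 1.25 (SE 0.11, edgeR adjusted p = 0.000702). Cd44, a marker of antigen-experienced T cells, had 5231 and 4882 counts in Tfh-like Tox2 and Tfh-like GFP, against 8888 and 6272 in Th0 Tox2 and Th0 GFP, and fell by 0.52 (SE 0.12, edgeR adjusted p = 0.0266). For these 4 genes the Tfh-like and Th0 libraries did not overlap. Such separation, here and above, is described for genes that passed a test, and its share over all genes was not counted. Cd9 did not pass for culture (log2 -0.07, SE 0.17).

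**Figure D4:**
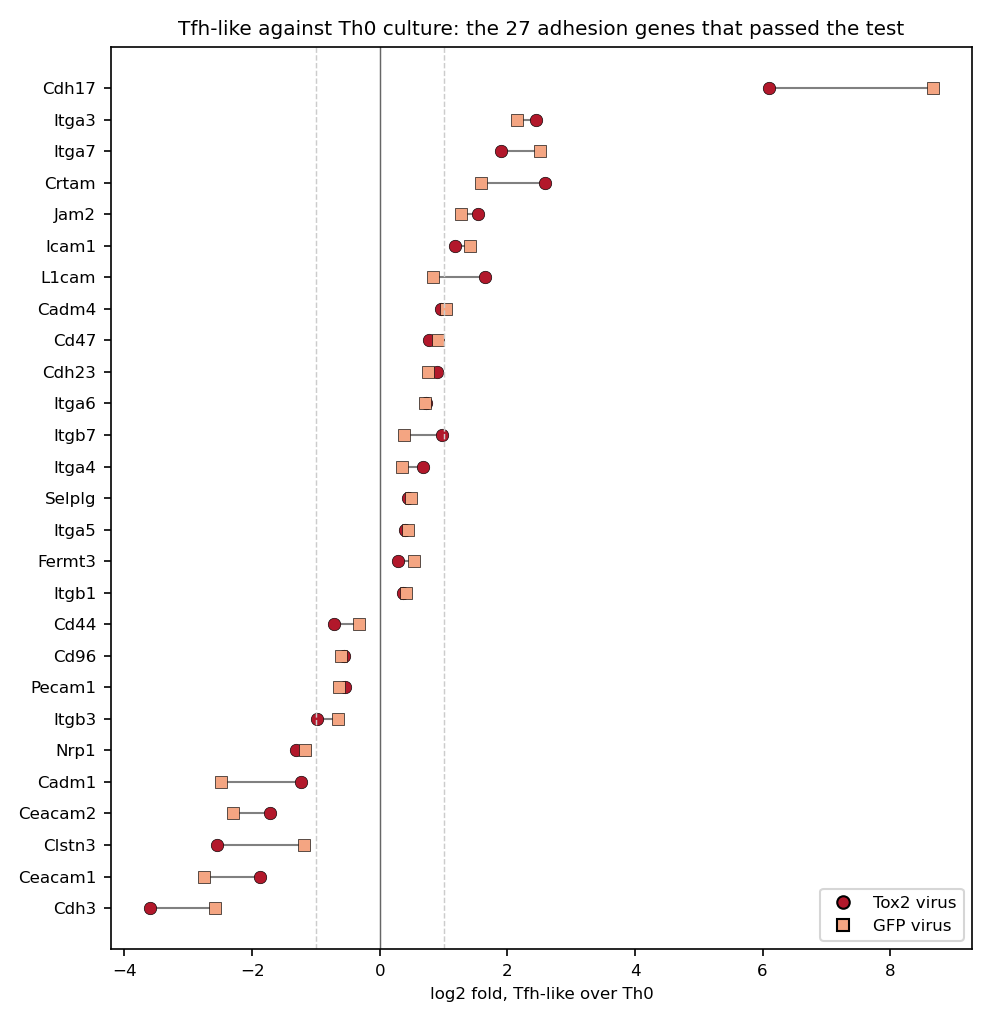
Log2 fold of Tfh-like over Th0 for the 27 genes that passed the culture test, with the Tox2 virus (circles) and the GFP virus (squares); dashed lines mark 2-fold. Since the test takes its spread from how far the folds of a gene differ, it favours genes whose points lie close together; the genes run from Cdh17 at 6.11 and 8.67 to Cdh3 at -3.60 and -2.59; the GFP points of Cdh17 and Cdh3 rest on counts of 1 and 0 and depend on the prior count of 2.

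Pair by pair, 9 of the 51 (17.6%) were 2-fold higher in Tfh-like than in Th0 with Tox2 and 6 (11.8%) lower, and of all genes 6.56% were higher and 2.86% lower. With GFP, 8 (15.7%) were higher and 7 (13.7%) lower, and of all genes 7.78% were higher and 3.11% lower.

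Side by side, several genes passed for both factors. Itga4 and Itga7 rose with Tox2 and rose in Tfh-like, and Itga3 fell with Tox2 and rose in Tfh-like. Itgb3, Ceacam1, Ceacam2, Cd96, Cdh3 and Clstn3 rose with Tox2 and fell in Tfh-like, so that each had its highest count in Th0 Tox2 and its lowest in Tfh-like GFP. Because both effects come from the same 4 libraries, these directions are not independent of each other.

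The 15 genes not named by the rule for individual values had 4 to 839 counts. None passed for Tox2 (log2 fold changes -1.24 to 0.84), and 1, Jam2, passed for culture. They include the LFA-1 ligands Icam2 and Icam5, the CD6 ligand Alcam, Itga2b, Itga10, Itgam, Itgb4, Itgb5, Ceacam15, Clstn1, Cdh24 and 3 protocadherin gamma genes.

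Other genes of adhesion pathways were followed as lists, whose counts stand against the 4.07% of all genes that rose and 2.74% that fell with Tox2, and the 14.3% that rose and 9.96% that fell in Tfh-like. Of 24 integrin activators and adaptors 2 rose with Tox2 and none fell (median log2 0.12): vinculin, Vcl, which links talin to actin (1.13, edgeR adjusted p = 0.00833), and Rasgrp1, an exchange factor downstream of the T-cell receptor (0.64, edgeR adjusted p = 0.0193). With culture 4 of the 24 rose and 2 fell (median 0.08), shares of 16.7% and 8.33% that lie near those of all genes. They were Vcl (0.91), zyxin, Zyx (0.61), filamin A, Flna (0.52), Rasgrp1 (-0.78) and Rasgrp2 (-1.02), besides the kindlin gene Fermt3 given above. Of 11 genes of the selectin system 3 fell with Tox2 and none rose (median 0.06). These were the sulfotransferase Chst2 (-0.96, edgeR adjusted p = 0.00598), the fucosyltransferase Fut7, which completes selectin ligands (-0.67, edgeR adjusted p = 0.0235), and the sialyltransferase St3gal4 (-0.51, edgeR adjusted p = 0.0356). In Tfh-like 4 of the 11 rose (median 0.27), Fut4 (2.66), Cd24a (3.53), Tpst2 (0.45) and Selplg, and Chst2 (-0.36) was among those that fell.

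Of 6 measured nectin family receptors and ligands 2 rose with Tox2, Cd96 and the inhibitory receptor Tigit (0.95, edgeR adjusted p = 0.0123), and with culture 2 rose, Crtam and Pvr (0.45, edgeR adjusted p = 0.0493), and 2 fell, Cd96 and Cadm1. Of 7 catenins and other cadherin partners 1 rose with Tox2, plakoglobin, Jup (0.61, edgeR adjusted p = 0.025), and 1 fell, plakophilin-3, Pkp3 (-0.55, edgeR adjusted p = 0.035). In Tfh-like Jup (0.47), Pkp3 (0.99) and alpha-catenin, Ctnna1 (0.60), rose and Pkp4 (-1.31) fell. Of 6 genes of Cd44 and its links to actin none passed for Tox2, and 4 fell in Tfh-like: Cd44, radixin, Rdx (-0.53), Slc9a3r1 (-0.36) and the hyaluronan receptor Hmmr (-0.45).

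Of 5 measured ligands of integrins and Cd47, osteopontin, Spp1 (-2.24), and fibronectin, Fn1 (-1.14), fell with Tox2, and thrombospondin-1, Thbs1 (1.14), and the Cd47 receptor Sirpa (2.42) rose. In Tfh-like Spp1 (2.45), Fn1 (4.52) and galectin-3, Lgals3 (1.51), rose and Sirpa (-2.34) fell. Sirpa rested on few reads, 21 and 3 counts in Tfh-like Tox2 and Tfh-like GFP, against 104 and 20 in Th0 Tox2 and Th0 GFP. Fn1 had 199 and 429 counts in Tfh-like Tox2 and Tfh-like GFP, against 9 and 19 in Th0 Tox2 and Th0 GFP. Of 10 tetraspanins Cd9 rose and Cd82 fell (-0.48, edgeR adjusted p = 0.0419) with Tox2, and Cd53 (0.60), Cd81 (0.46) and Cd82 (0.46) rose in Tfh-like. Of 13 plexins and semaphorins 3 rose with Tox2, Sema4c (1.04), Plxnd1 (0.91) and Plxna3 (0.58), and Sema7a, whose product binds integrins, fell (-0.93). In Tfh-like Sema7a (3.41), Sema4a (1.26) and Sema4d (0.94) rose and 3 fell, among them Sema4c (-1.43) and Plxnd1 (-0.89). The median log2 fold changes of these lists with Tox2 were 0.14 for nectin family genes, 0.02 for cadherin partners, -0.05 for Cd44 and its links, -0.40 for ligands, -0.06 for tetraspanins and 0.07 for plexins and semaphorins, where all genes tested had 0.00. With culture they were -0.37, 0.47, -0.40, 1.51, 0.05 and -0.11 in the same order, where all genes tested had -0.01.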

How the data were processed

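Each of the 4 libraries has a deposited table of counts and FPKM per gene, both named in its header. The counts are whole numbers with unequal totals and were deposited without normalization. FPKM was computed by the authors, per the file headers. Per the labels' protocols, RNA was extracted with Trizol and sequenced at BGI. Tools named in the submitters' processing notes are Trim Galore 0.4.4, Subread with featureCounts, Bowtie2, MACS2 and edgeR, and the build is mm10. The role of each tool, the annotation and whether reads were counted by strand are not stated there. Every listed gene had at least 0.658 CPM in its second-highest library. Genes that reached this level in no library, or in a single library only, were therefore not analysed here. No table column belonged to other samples (0 columns).

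Counts were scaled by TMM over all listed genes and fitted with edgeR 4.0.16 (R 4.3.3), with virus and culture as additive terms, over genes with at least 1 CPM in at least 1 library and with 1 residual degree of freedom. The procedure was checked on simulated counts with set Tox2 changes and no culture effect. That check does not cover Tox2 effects that differ between the cultures. Pairs were described by log2 folds of TMM-scaled CPM (prior count 2) with exact 95% conditional binomial intervals, which cover counting error alone, as PCR copies cannot be told from separate molecules. Differences between Tox2 folds have delta-method intervals. FPKM served for levels per length. Gene coordinates are those of GENCODE M21 on GRCm38. Alternatives used DESeq2 1.42.0, limma 3.58.1, other scalings, filters, prior counts and removal of a length trend.

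Genes were named individually where they passed either test or were 2-fold apart in a pair with at least 5 CPM in a library, or belonged to a set of T-cell adhesion genes (Itgal, Itgb2, Itga4, Itgb1, Itgb7, Itgae, Itgav, Itgb3, Icam1, Selplg, Cd44, Cd226, Cd96, Crtam, Nrp1, Tln1 and Fermt3). Jam2, Icam2 and Itgam were named outside this rule after their values were seen. The genes and lists were chosen with earlier results of these data known. Some genes of the lists are not reported here.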

Additional observations from a re-analysis of the deposited data

How the results depend on the processing

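Over the alternatives run, the number of the 51 genes that passed was 10 to 15 for Tox2 (11 reported) and 22 to 29 for culture (27 reported). The number 2-fold apart was 10 to 13 for Tox2 in Th0 (12 reported), 7 to 11 for Tox2 in Tfh-like (9), 13 to 16 for culture with Tox2 (15) and 11 to 15 for culture with GFP (15). Of the pair folds of the 51 genes under the alternatives, 1770 stayed within the counting interval of the reported fold and 34 moved outside it. No effect of the 51 genes changed sign with a call. Of their effects under these alternatives, 871 kept their side of the threshold, 16 passed in addition and 12 were lost. Those that passed in addition were, in one or more settings, Cadm1, Pecam1, Cdh17 and Pcdhgc5 for Tox2 and Cd226, Itgb8 and Pcdhgc4 for culture. For Tox2 the lost calls were Cd9 (edgeR adjusted p = 0.0571 with at least 5 CPM, 0.0597 with TMM from tested genes only, an alternative chosen after seeing the data) and, with DESeq2, Cdh3 and Ceacam2 (0.063 each). For culture they were Itga5 with the sum of counts (edgeR adjusted p = 0.0787), Itga5 and Jam2 with TMM from tested genes (0.05 each), and Itga5, Jam2, Cadm4, Fermt3 and Itgb1 with DESeq2; Jam2 was not tested at 5 CPM. Over all genes, DESeq2 called 492 for Tox2 and 1609 for culture, and scaling by the sum of counts 1193 and 3149, against 746 and 2656 as reported. Of 51 genes 43 reached 5 CPM. Depth limits Cdh3, Itgam, Itgae and Jam2, and Cdh17 in Th0. No paired analysis was possible because each group has 1 library, and for the same reason no replicate could be left out.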
